A study of Homo sapiens with 30 samples.

Results

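The genes described here were those of the WNT pathway's outer and core parts, measured in breast cancer cell lines treated with bone morphogenetic protein 4 (BMP4) or with vehicle. They were chosen by name alone: every gene whose array name began with WNT or FZD followed by a digit, together with the secreted inhibitors DKK1, DKK3, SFRP1 and SFRP2, the co-receptors LRP5 and LRP6, the destruction complex and beta-catenin genes AXIN1, AXIN2 and CTNNB1, and the transcription factors LEF1 and TCF7. This rule found 40 of the 30484 gene names on the array, on 59 of its 41000 probes, namely 19 WNT ligands, 10 Frizzled receptors, 4 secreted inhibitors and 7 co-receptor or intracellular genes. Where a gene had several probes, the one with the highest mean signal over the 30 arrays stands for it, and the others are given where they differ.

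The study used ZR-75-30, SK-BR-3, MDA-MB-361, HCC1954 and HCC1419, 5 established lines of human breast cancer cells. Each line received recombinant human BMP4 or vehicle for 30 min, 1, 3, 6, 12 or 24 h, and each of the 30 two-colour arrays set the BMP4-treated cells of 1 line and time (Cy5, red) against the vehicle-treated cells of the same line and time (Cy3, green). Treatments were done in triplicate but the cells were pooled before RNA extraction, so that each line and time point has 1 array. No dyes were swapped, so a dye effect of a probe cannot be told apart from an effect of BMP4, and the 5 lines are the replicates of a time point.

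WNT proteins are secreted lipid-modified ligands that bind Frizzled receptors, and in the canonical branch also LRP5 or LRP6. When the receptors are engaged, the destruction complex built on AXIN1 and AXIN2 no longer removes beta-catenin, the product of CTNNB1, which then acts with TCF7, LEF1 and related factors on target genes such as AXIN2 itself. DKK1 blocks LRP5 and LRP6, and secreted Frizzled-related proteins such as SFRP1 bind WNT ligands outside the cell. BMP4 signals through SMAD proteins, and both pathways act together in the development of the mammary gland and of bone.

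Across whole arrays, 58.9 to 70.6% of probes were well above background in Cy3 and 56.3 to 70.8% in Cy5. For the spiked-in control RNAs, the slope of the observed against the expected log ratio was 0.525 to 0.877, so that ratios were compressed. KRT8, KRT18 and ERBB2, of epithelial cells and ERBB2-positive breast cancer, were above background on all 30 arrays, and the leukocyte gene PTPRC and the stromal receptor gene PDGFRB on 0. Of the other markers of leukocytes, endothelium and stroma, COL1A2, COL3A1 and PECAM1 were so on 1, 5 and 6 arrays, COL1A1 on 28, and the THY1, CD3E, CD68 and VWF probes on all 30, and their part in the values below was not tested. ID1, ID2 and ID3, direct targets of BMP signalling, had mean log2 ratios of 1.42, 1.63 and 1.01 at 24 h (limma adjusted p = 1.7e-05, 1.0e-05 and 0.00097). The array files named 7 scan days. HCC1419 and MDA-MB-361 were each scanned on a day of their own, so line and day cannot be told apart for these lines. SK-BR-3 was scanned on 2 days shared with no other line, 1 with its 30 min and 1 h arrays and 1 with its 3 to 24 h arrays, so neither its line nor its late change can be told apart from the day. HCC1954 was scanned on 2 days, 1 with its 30 min, 1 h and 12 h arrays and 1 with its 3, 6 and 24 h arrays. Between these days its log2 ratios did not overlap for 14 of the 40 genes, where 24.7% of all probes did not, and its vehicle levels for 17, where 45.9% of all probes did not. In ZR-75-30, also scanned on 2 days, the ratios of 1 of the 40 genes (6.83% of all probes) and the levels of 2 (14.7%) did not overlap.

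The first question was which of these genes the lines expressed. On the vehicle channel, 15 of the 40 genes were well above background on all 6 arrays of every line. They were the ligands WNT4, WNT6 and WNT10A, the receptors FZD1 to FZD6 and FZD9, the co-receptors LRP5 and LRP6, the inhibitor DKK1, and AXIN1 and CTNNB1. The dimmer WNT6 probe was so on 5 of 6 arrays of HCC1419 and on all others. Another 14 genes were above background on all arrays of 1 to 4 lines, namely the ligands WNT3, WNT3A, WNT5A, WNT7B, WNT9A, WNT10B and WNT11, the receptors FZD7, FZD8 and FZD10, the inhibitor SFRP1, and AXIN2, LEF1 and TCF7. The remaining 11 were so in no line. WNT2, WNT8B and WNT16 were above background on none of the 30 vehicle channels, and DKK3, SFRP2, WNT1, WNT2B, WNT5B, WNT7A, WNT8A and WNT9B on some. The ligands and the receptors differed in this, with 9 of the 19 ligands above background throughout no line, and 0 of the 10 Frizzled genes. This count describes these probes, since a dim probe gives no proof that a transcript is absent.

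The vehicle level, the log2 Cy3 signal after normalization, was compared between lines with the 6 arrays of a line as its samples. These 6 arrays differ in time and stand for 6 pooled cultures, so the tests measure the spread between them. Levels are compared between lines for 1 probe at a time, never between probes. The level differed between lines for 31 of the 40 genes (77.5%) at an adjusted p under 0.05, while 73.1% of all probes did. Among the 29 genes above background throughout at least 1 line, the median range between line means was 1.60 on the log2 scale and 11 genes (37.9%) had a range over 2. Among all 28291 probes above background throughout at least 1 line, the median was 1.20 and 20.8% had a range over 2. These include the dimmer second probes of a gene, whereas each member is its gene's brightest probe. The 2 sets are therefore not chosen alike, and whether members range more widely than like-chosen probes was not tested. Where a gene was above background on none of a line's arrays, the fold is a lower bound, written "at least", taken against the lowest signal that counted as above background on each array.

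**Figure D1:**
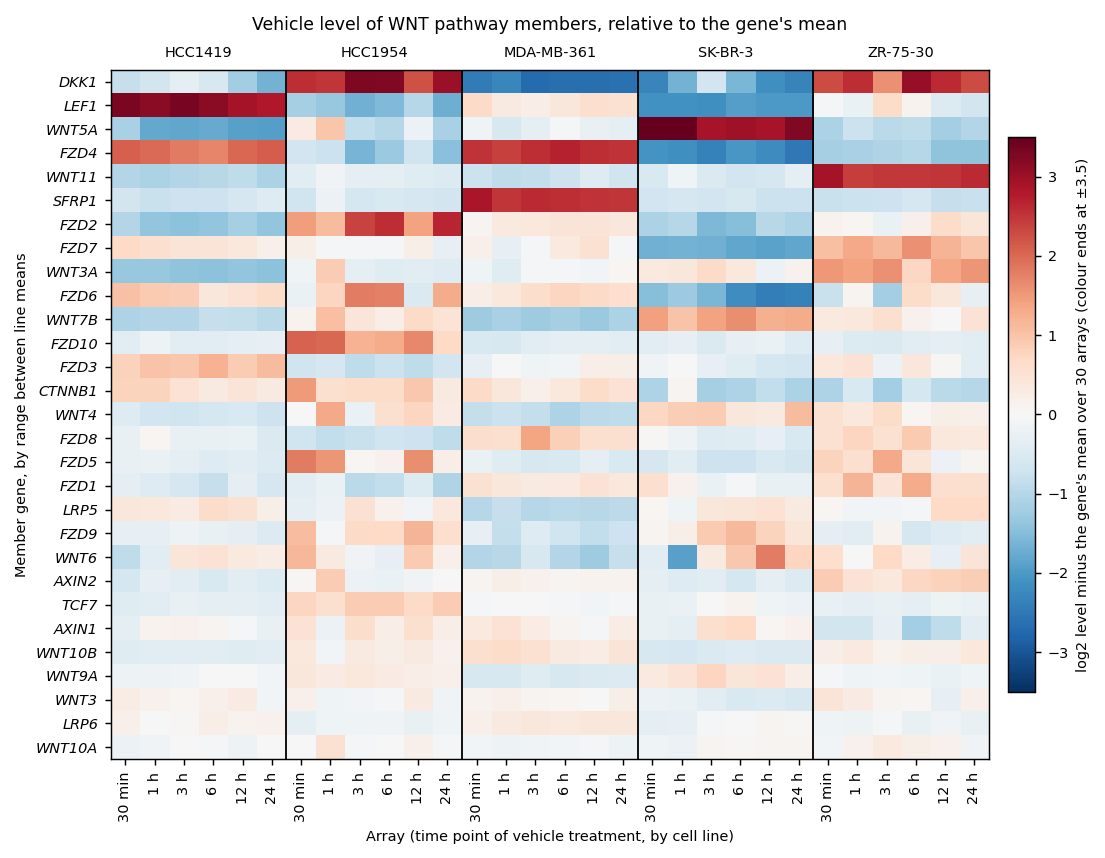
Heat map of the vehicle level of the members above background throughout at least 1 cell line, with 1 column per array in the order of lines and time points and 1 row per gene, as log2 level minus the gene's mean over the 30 arrays. The rows at the top hold the widest ranges, among them DKK1 with 5.36, LEF1, WNT5A and FZD4, and each shows blocks of 6 columns of like colour, which are the cell lines.

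The inhibitor gene DKK1 had the widest range of all. Its probe lies at chr10:53746693-53746752 (hg18). In HCC1954 its log2 level ran from 13.65 to 14.70 with a median of 14.25. In ZR-75-30 it ran from 13.03 to 14.47 with a median of 13.87. In HCC1419 the lowest, median and highest levels were 9.78, 10.71 and 11.12. In SK-BR-3 they were 9.09, 9.54 and 10.78, and in MDA-MB-361 8.73, 8.81 and 9.15. The 6 arrays of HCC1954 and the 6 of ZR-75-30 thus lay above every array of the other lines. HCC1954 was 41.0-fold higher than MDA-MB-361 (difference 5.36, adjusted p = 4.5e-15, limma). The difference between HCC1954 and ZR-75-30 was 0.41 (adjusted p = 0.21), and on the scan day that both shared, with 3 arrays each, it was 1.02. ZR-75-30 was 9.58-fold higher than HCC1419, and the steps from HCC1419 to SK-BR-3 (0.92) and from there to MDA-MB-361 (0.77) were also past the threshold (adjusted p = 0.0031 and 0.011).

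SFRP1, the other inhibitor with a wide range, was measured throughout only in MDA-MB-361. There its log2 level had a mean of 9.80 ± 0.14 (SD, n = 6), while it was above background on 1 of 6 arrays of HCC1954 and on 0 in HCC1419, SK-BR-3 and ZR-75-30. MDA-MB-361 was at least 9.07-fold higher than ZR-75-30. The second SFRP1 probe gave the same picture, with 8.39 in MDA-MB-361 and a correlation of 0.99 with the first over the 30 arrays. DKK3 and SFRP2 were above background on 16 and 20 of the 30 vehicle channels, and their levels did not pass the test between lines (adjusted p = 0.084 and 0.96).

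Among the transcription factors, LEF1 was highest in HCC1419. Its probe lies at chr4:109188195-109188254 (hg18). The lowest, median and highest log2 levels were 11.28, 11.64 and 11.80 in HCC1419, 8.72, 8.94 and 9.14 in MDA-MB-361, and 7.82, 8.35 and 9.11 in ZR-75-30. In HCC1954 they were 6.77, 7.04 and 7.49, and in SK-BR-3, where no array was above background, 6.33, 6.41 and 6.55. HCC1419 was 6.32-fold higher than MDA-MB-361, the next line, and at least 31.4-fold higher than SK-BR-3. Every neighbouring step in this order passed the test, the smallest being that from MDA-MB-361 to ZR-75-30 (0.56, adjusted p = 0.0044). A second, dimmer LEF1 probe was above background on all arrays only in HCC1419. TCF7 was above background throughout only in HCC1954, at 7.61 ± 0.14, which was 1.77-fold above MDA-MB-361 (adjusted p = 1.2e-11).

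Among the WNT ligands, WNT5A, a ligand known mainly for beta-catenin-independent signalling, was highest in SK-BR-3, with log2 levels from 11.16 to 12.23 and a median of 11.38. The medians were 7.97 in MDA-MB-361, 7.74 in HCC1954 and 7.30 in ZR-75-30, and 6.47 in HCC1419, where 1 of 6 arrays was above background. SK-BR-3 was 12.1-fold higher than MDA-MB-361. The levels of MDA-MB-361 and HCC1954 differed by 0.04 (adjusted p = 0.91), and those of WNT5A in HCC1954 split by scan day, 8.08 to 9.25 on one and 7.14 to 7.41 on the other. The step from HCC1954 to ZR-75-30 was 0.65 over all arrays (adjusted p = 0.024) and 0.07 on their shared day.

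WNT11, also linked to beta-catenin-independent signalling, was highest in ZR-75-30, where its level ran from 9.81 to 10.28 with a median of 9.86. In HCC1954 it ran from 6.89 to 7.25, and the medians of the remaining lines were 6.86 in SK-BR-3, 6.64 in MDA-MB-361 and 6.34 in HCC1419. ZR-75-30 was 7.52-fold higher than HCC1954 and at least 10.4-fold higher than HCC1419. On their shared scan day the difference between ZR-75-30 and HCC1954 was of like size, 3.01 on the log2 scale. The second WNT11 probe gave smaller differences, with HCC1954 minus ZR-75-30 at -0.57 over all arrays. By it ZR-75-30 ran from 7.27 to 7.93, overlapping HCC1954 (6.83 to 7.49) and SK-BR-3 (6.75 to 7.77). HCC1419, where that probe was above background on 3 of 6 arrays, ran from 6.74 to 7.03. WNT3A, a canonical ligand, was also highest in ZR-75-30 at 9.36 ± 0.32, which was 2.10-fold above SK-BR-3 and at least 6.38-fold above HCC1419. WNT7B was highest in SK-BR-3 at 9.30 ± 0.21 and lowest in MDA-MB-361 at 6.77 ± 0.08, a 5.79-fold difference, and its second probe followed it with a correlation of 0.92. WNT4, the ligand known for branching of the mammary gland, was above background in every line, with means of 8.68 in SK-BR-3, 8.42 in HCC1954 and 8.30 in ZR-75-30 over 7.35 in HCC1419 and 7.08 in MDA-MB-361.

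Among the Frizzled receptors, FZD4 had the widest range. Its probe lies at chr11:86334448-86334507 (hg18). The lowest, median and highest log2 levels were 13.26, 13.42 and 13.55 in MDA-MB-361 and 12.58, 12.86 and 12.97 in HCC1419. They were 9.24, 9.83 and 10.18 in HCC1954, 9.44, 9.70 and 9.86 in ZR-75-30, and 8.35, 8.68 and 8.82 in SK-BR-3. By this probe MDA-MB-361 and HCC1419 thus formed an upper pair, which differed by 0.60 (limma adjusted p = 0.00049). MDA-MB-361 was 27.5-fold higher than SK-BR-3. HCC1954 and ZR-75-30 differed by 0.11 (adjusted p = 0.58), with the opposite sign on their shared scan day (-0.26). The second, dimmer FZD4 probe did not show this pair. Its levels ran from 7.81 to 8.20 in HCC1419, above every array of the other lines. In MDA-MB-361 they ran from 6.94 to 7.34, overlapping HCC1954 (6.68 to 7.10) and ZR-75-30 (6.65 to 7.02).

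Other receptors marked other lines. FZD2 was highest in HCC1954 at 11.33 ± 0.68, 9.40-fold above HCC1419. FZD10 was above background in HCC1954 alone, at 8.35 ± 0.53, at least 3.48-fold above MDA-MB-361. FZD7 was highest in ZR-75-30 at 9.58 ± 0.23 and above background on no array of SK-BR-3, a difference of at least 7.19-fold. FZD6 was lowest in SK-BR-3 at 8.53 ± 0.50, 6.47-fold below HCC1954 over all arrays. The FZD6 levels of HCC1954 split by scan day, 9.91 to 11.17 on one and 11.71 to 12.20 on the other. HCC1419 ran from 10.80 to 11.45 and MDA-MB-361 from 10.64 to 11.17, so HCC1954 lay above both on the second day only. In HCC1954 the same days split FZD2 into 10.51 to 10.86 and 11.76 to 12.06, and FZD10 into 8.54 to 8.92 and 7.55 to 8.16. SK-BR-3 thus held the lowest mean of FZD4 and FZD6 and, as in no other line, was above background on no array for FZD7. This did not hold for every receptor, since FZD9 ran from 8.71 to 9.76 in SK-BR-3 and from 8.14 to 8.45 in HCC1419. CTNNB1 itself had means of 13.72, 13.48 and 13.41 in HCC1954, HCC1419 and MDA-MB-361, whose neighbouring differences did not pass (adjusted p = 0.24 and 0.80), and the lowest of these was 2.51-fold above SK-BR-3. By its second probe the means were 11.02, 10.16 and 9.25 in these lines, 9.26 in ZR-75-30 and 9.34 in SK-BR-3, so that MDA-MB-361 was not in the upper group there. By the brighter probe ZR-75-30 differed from SK-BR-3 by 0.03 (adjusted p = 0.93), while LRP5 and LRP6 had line means within 8.04 to 9.39 and 7.56 to 8.09.

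**Figure D2:**
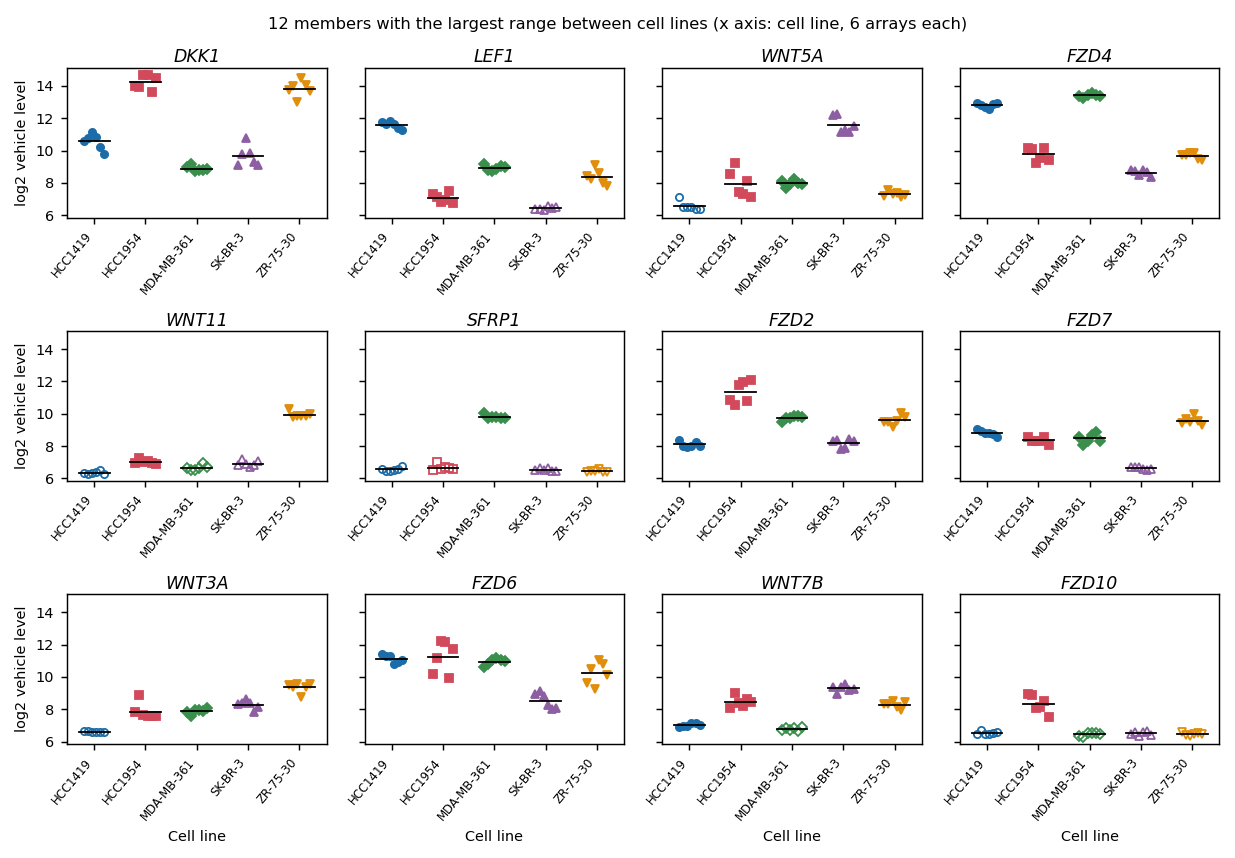
Log2 vehicle level of the 12 members with the widest range between line means, with 1 point per array, 6 arrays per cell line, and a line at each mean; open symbols mark lines in which not every array was above background. DKK1 was high in HCC1954 and ZR-75-30, LEF1 in HCC1419, WNT5A in SK-BR-3, FZD4 in MDA-MB-361 and HCC1419, and WNT11 in ZR-75-30.

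Upstream sequences were chosen by the range of the vehicle level among genes with 1 listed start, which left out WNT5A with its range of 5.03. Those of DKK1, LEF1 and FZD4, the inhibitor, the factor and the receptor with the widest ranges, are shown. Each is the 250 bases before the transcription start in RefSeq's table of the GRCh38.p14 assembly, another build than that of the probe positions, written 5′ to 3′ on the gene's strand, and capitals mark a match to a motif searched on both strands. The windows lie at chr10:52314031-52314280 (plus strand) for DKK1, at chr4:108166302-108166551 (minus strand) for LEF1 and at chr11:86955396-86955645 (minus strand) for FZD4.
DKK1: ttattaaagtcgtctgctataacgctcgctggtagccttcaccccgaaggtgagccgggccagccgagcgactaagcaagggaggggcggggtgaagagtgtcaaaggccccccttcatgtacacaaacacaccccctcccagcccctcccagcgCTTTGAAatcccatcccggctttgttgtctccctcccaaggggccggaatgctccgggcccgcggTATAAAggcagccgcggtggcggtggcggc
LEF1: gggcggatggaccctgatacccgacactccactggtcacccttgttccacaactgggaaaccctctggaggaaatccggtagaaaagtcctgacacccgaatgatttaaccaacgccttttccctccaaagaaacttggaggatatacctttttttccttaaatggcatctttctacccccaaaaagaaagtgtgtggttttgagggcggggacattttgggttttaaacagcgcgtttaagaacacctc
FZD4: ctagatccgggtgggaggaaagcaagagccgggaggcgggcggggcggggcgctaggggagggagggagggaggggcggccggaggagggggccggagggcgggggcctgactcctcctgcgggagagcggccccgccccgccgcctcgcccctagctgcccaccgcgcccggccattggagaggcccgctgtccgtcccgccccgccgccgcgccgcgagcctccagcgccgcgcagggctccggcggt
The motifs were CTTTGAT and CTTTGAA, core letters bound by TCF and LEF factors, and TATAAA, the TATA box. DKK1 held CTTTGAA 95 bases and TATAAA 30 bases before its start, and the other windows held none of the motifs. Of all 35116 windows of this length, 2.26% held CTTTGAT, 3.8% CTTTGAA and 10.7% TATAAA, and of the 32 windows matched to 28 of the 40 genes, 0, 1 and 4 did. The GC content was 62.8% for DKK1, 47.6% for LEF1 and 80.8% for FZD4. A match describes these letters and shows no binding.

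The second question was whether BMP4 changed these genes. At each time point the log2 ratio of BMP4 over vehicle was tested against 0 over the 5 lines. The spread in this test was pooled from all 30 arrays, around the means of the 6 time points. Each line thus enters it 6 times, and arrays of the same line are not independent, so the p-values are not those of 5 lines alone. No member passed an adjusted p under 0.05 at 30 min, 1, 3, 6 or 12 h, where 0.0805, 0.973, 0.349, 0.176 and 0.463% of all probes did, and 1 member, WNT11, did at 24 h, where 1.58% of all probes did. At an unadjusted p under 0.05, 2, 5, 5, 2, 6 and 7 members stood at the 6 time points in order, and 2906, 5878, 4213, 2852, 4934 and 5954 of the 41000 probes. Because every line appears at every time point, the test was also run with the line as a block, which removes each line's mean. Its p-values therefore leave out the spread between the lines' means and measure only the spread that remains around them. The blocked test called 5 members at some time point, WNT9A at 1 h, FZD1 and FZD7 at 3 h, WNT11 at 12 and 24 h and FZD2 at 24 h. The shares of all probes called at 1, 3, 12 and 24 h were then 2.53, 1.08, 1.9 and 4.44%.

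A late change was also computed for each gene, the mean ratio at 3, 6, 12 and 24 h minus the ratio at 30 min, with the line as a block; since it is a difference of ratios on the same probe, a constant dye effect cancels in it. No member's late change passed the test (limma, 0.0927% of all probes did), and none changed over the 6 time points (0.0902% of all probes). At an unadjusted p under 0.05, 2 and 3 members stood in these tests, and 2046 and 1722 of all probes. The members' late changes had a median of 0.02 and the probes' 0.01, 23 of 40 were above 0, and they ran from -0.25 for DKK3 to 0.62 for WNT6. Their standard errors ran from 0.033 to 0.348 with a median of 0.078, and the smallest late change called among all probes was 0.371.

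**Figure D3:**
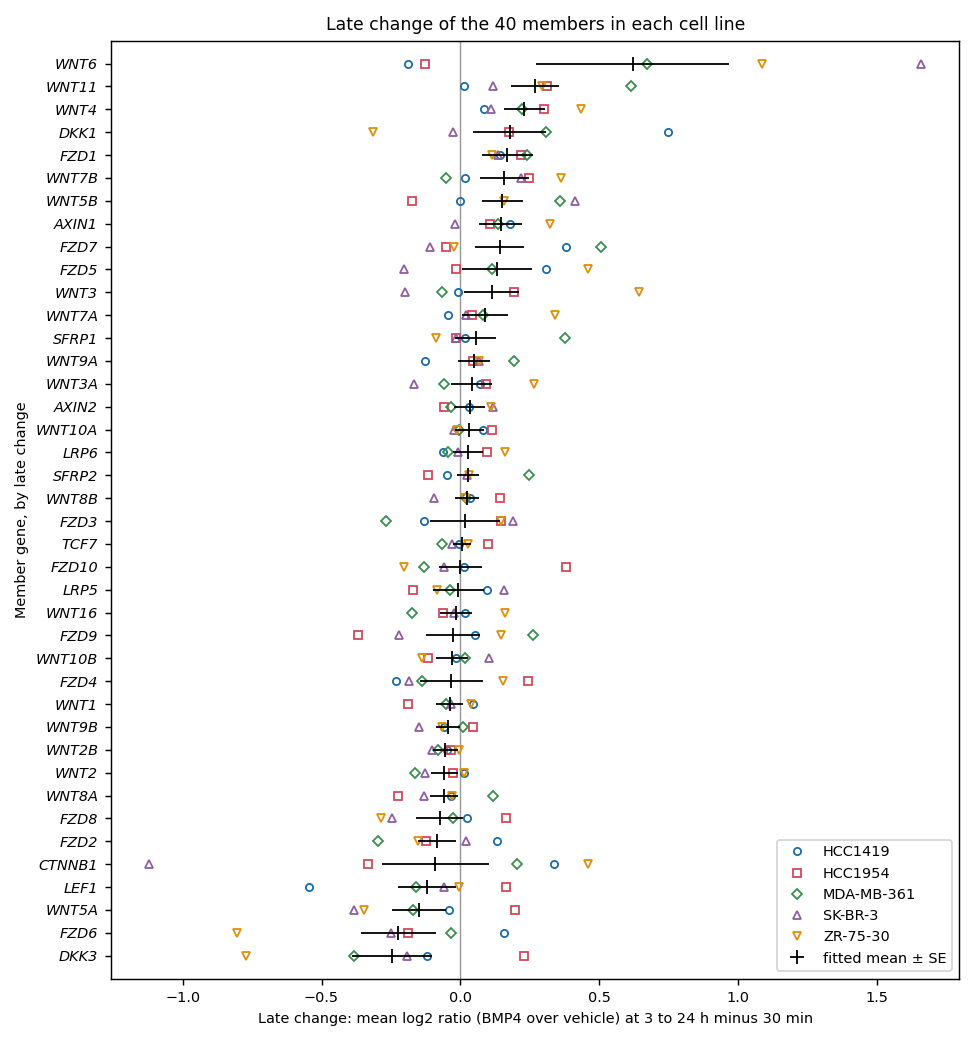
Late change of the 40 members, as the mean log2 ratio of BMP4 over vehicle at 3 to 24 h minus that at 30 min, with 1 symbol per cell line and a bar for the fitted mean ± SE. Most bars cross or lie near 0, and WNT6 has the highest mean, 0.62 with an SE of 0.35.

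WNT11 was the member with the clearest BMP4 ratio. Its probe lies at chr11:75575234-75575293 (hg18, minus strand). At 24 h the log2 ratio was 1.09 in MDA-MB-361, 0.48 in HCC1954, 0.45 in ZR-75-30, 0.43 in SK-BR-3 and -0.01 in HCC1419. It was thus higher with BMP4 in 4 of 5 lines, with HCC1419, where the probe was above background in neither channel of any array, at 0. The mean was 0.49 ± 0.39 (SD, n = 5). With the spread pooled over all 30 arrays, the limma adjusted p was 0.0073, and 0.00067 with the line as a block. The means of the 6 time points in order were 0.01, 0.07, 0.08, 0.24, 0.31 and 0.49. At 12 h the ratios were 0.75, 0.04, 0.49, 0.15 and 0.11 in the same order of lines (adjusted p = 0.18, and 0.041 with the block).

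In HCC1954 the WNT11 ratios were -0.05, 0.05 and 0.04 on one scan day (30 min, 1 h and 12 h) and 0.15, 0.38 and 0.48 on the other (3, 6 and 24 h), so that time and day cannot be separated there. MDA-MB-361, with all arrays on 1 day, had ratios of -0.01, 0.23, 0.17, 0.40, 0.75 and 1.09 in the order of the time points. In MDA-MB-361 the probe was above background on 2 of 6 arrays in the vehicle channel and 3 of 6 in the BMP4 channel, and in SK-BR-3 on 2 and 5. The late change was 0.62, 0.31, 0.29, 0.12 and 0.01 in the same order of lines, with a fitted mean of 0.27 and an SE of 0.087. From arrays of the same scan day as 30 min it was 0.09 in HCC1954 and 0.21 in ZR-75-30, and SK-BR-3 had no such array at 3 h or later. Its limma p was 0.0051 and the adjusted p 0.70. A second WNT11 probe, at chr11:75583518-75585215, had a mean of 0.11 ± 0.15 at 24 h (adjusted p = 0.61), and 0.31 in MDA-MB-361. The call at 24 h was lost without HCC1954 (adjusted p = 0.056), without ZR-75-30 (0.054) and with 1 scaling factor per array in place of the intensity-dependent normalization (mean 0.46, adjusted p = 0.19). The mean itself was 0.32 with array weights, 1.06 with the scanner software's log ratios and 1.096 with the series matrix.

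WNT4 gave small values of one sign. Its late change was 0.44 for ZR-75-30, 0.30 for HCC1954, 0.22 for MDA-MB-361, 0.11 for SK-BR-3 and 0.08 for HCC1419. All 5 lines were above 0, with a fitted mean of 0.23 and an SE of 0.07, which did not pass over all probes. The limma p was 0.0050 and the adjusted p 0.70. ZR-75-30 held the highest ratios, 0.77 at 12 h and 0.72 at 24 h. The second WNT4 probe had a late change of 0.03 with an SE of 0.10.

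Among the inhibitors, DKK1 had ratios at 24 h of 0.59 in MDA-MB-361, 0.45 in HCC1954, 0.41 in HCC1419 and 0.23 in SK-BR-3, with ZR-75-30 at 0.00. The mean of 0.34 ± 0.23 did not pass the test (adjusted p = 0.24). In HCC1419 the DKK1 ratio was -0.10 at 30 min and -0.23 at 1 h, then 0.57, 0.90, 0.71 and 0.41 at 3, 6, 12 and 24 h. In ZR-75-30 it was 0.20 and -0.64 at 30 min and 1 h, then 0.21, -0.25, -0.41 and 0.00. The late change by line was thus 0.31, 0.17, 0.75, -0.03 and -0.31 in the order of lines above, with both signs. SFRP1, measured only in MDA-MB-361, had ratios there of -0.02, 0.37, 0.66, 0.59, 0.01 and 0.15 from 30 min to 24 h, and its second probe -0.05, 0.21, 0.45, 0.46, 0.15 and 0.05. Both probes were highest at 3 and 6 h, in 1 line with 1 array per time point and therefore with no test.

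LEF1 had ratios in HCC1419, the line with its highest level, of 0.15, 0.06, -0.18, -0.53, -0.39 and -0.46 from 30 min to 24 h. In MDA-MB-361 they were -0.29, 0.09, 0.00, -0.32, -0.80 and -0.70. At 24 h the other 3 lines lay at 0.04, 0.07 and 0.08, and the mean over lines was -0.19 ± 0.37 (adjusted p = 0.54). The second LEF1 probe read -0.18, -0.21 and -0.03 in HCC1419 at 6, 12 and 24 h, and in MDA-MB-361 it was above background on 0 of 6 arrays. AXIN2, a target of the canonical branch as well as a part of it, had a mean of 0.00 ± 0.18 at 24 h. Its ratios lay between -0.18 and 0.28 on all 30 arrays. The AXIN2 probe was above background on 0 of 6 vehicle channels in HCC1419 and 1 of 6 in SK-BR-3. Ratios from these lines therefore say little about the transcript. At 24 h they were -0.02 and 0.07, against -1.19 and 1.32 in the series matrix. Where the probe was above background throughout, the 24 h ratios were 0.28 in ZR-75-30, -0.14 in HCC1954 and -0.18 in MDA-MB-361.

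**Figure D4:**
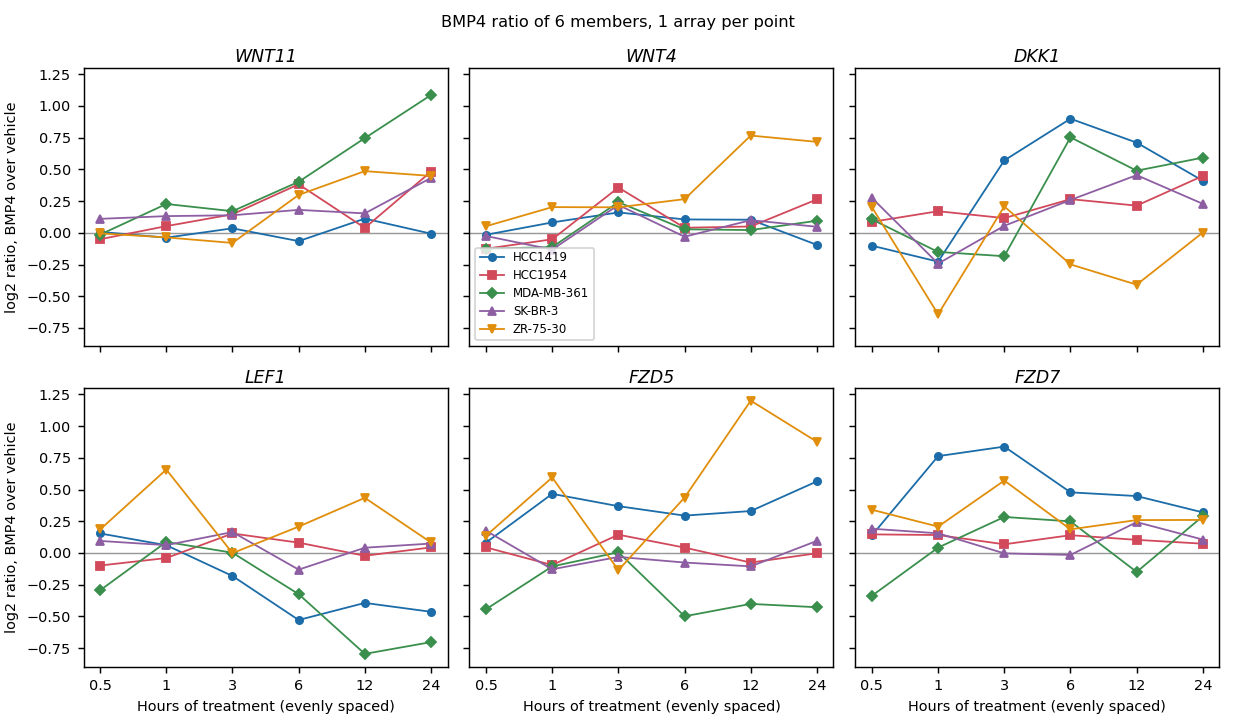
Log2 ratio of BMP4 over vehicle against hours of treatment, evenly spaced, for WNT11, WNT4, DKK1, LEF1, FZD5 and FZD7, with 1 point per array and 1 line per cell line. WNT11 reached 1.09 in MDA-MB-361 at 24 h and stayed near 0 in HCC1419, and FZD5 reached 1.20 in ZR-75-30 at 12 h.

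Among the Frizzled receptors, FZD1 had ratios at 3 h above 0 in 5 of 5 lines, with a mean of 0.38 ± 0.15 (adjusted p = 0.086, and 0.020 with the line as a block). Its second probe had a mean of 0.08 there. FZD2 had ratios at 24 h of -0.40 in ZR-75-30, -0.39 in HCC1954, -0.32 in MDA-MB-361, -0.14 in HCC1419 and -0.12 in SK-BR-3, all below 0. Their mean of -0.28 ± 0.13 did not pass without the block (adjusted p = 0.10) and passed with it (0.0096), and it was also called with the scanner software's log ratios, with the series matrix and without background correction. FZD7 was highest in HCC1419, at 0.76 and 0.84 after 1 and 3 h, and its mean at 3 h was 0.35 ± 0.35 (adjusted p = 0.19, and 0.026 with the block), although the value of SK-BR-3, 0.00, came from signals not above background in the vehicle channel. WNT9A, the ligand called only with the block, had a mean of -0.23 ± 0.19 at 1 h, below 0 in 5 of 5 lines (adjusted p = 0.13, and 0.018 with the block).

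The third question was whether the BMP4 ratio differed between lines. The mean ratio over the 6 time points differed for 12 of the 40 genes (30%), where 22.2% of all probes did. These were AXIN1, FZD2, FZD4, FZD5, FZD6, FZD7, FZD9, LEF1, WNT4, WNT6, WNT9A and WNT11. For 5 of them MDA-MB-361 lay farthest from the other lines (AXIN1, FZD4, FZD5, WNT6 and WNT11), for 3 ZR-75-30 (FZD6, LEF1 and WNT4), for 2 SK-BR-3, and for 1 each HCC1419 and HCC1954. The number fell to 0 without MDA-MB-361 (0.234% of all probes), to 7 without HCC1419 (13.1%), to 6 with the scanner software's log ratios (19.1%) and to 0 with 1 scaling factor per array (0.0122%). It rose to 14 with the scan day as a random block (24.4%) and to 18 with array weights (36.3%). Among probes above background in either channel on at least 15 arrays it was 13, and 35.8% of such probes differed. Since a mean over all times holds any dye effect that differs between lines, and scan days follow lines, neither can be told apart from BMP4 here. The late change, in which a constant dye effect cancels, differed between lines for 0 of the 40 members (limma, 0.0588% of all probes), and 2 members and 2449 of all probes stood at an unadjusted p under 0.05.

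FZD5 had the widest such range after WNT6. Its mean ratio was 0.52 ± 0.49 in ZR-75-30, 0.35 ± 0.16 in HCC1419, 0.01 ± 0.09 in HCC1954, -0.01 ± 0.12 in SK-BR-3 and -0.31 ± 0.21 in MDA-MB-361 (SD, n = 6 arrays, adjusted p = 0.0040). MDA-MB-361 and ZR-75-30 thus lay on opposite sides of 0. The array of ZR-75-30 at 12 h, at 1.20, was the only one of the 30 at 2-fold or more. Both other FZD5 probes had narrower ranges, 0.18 and 0.17, and did not pass (adjusted p = 0.34 and 0.29). FZD4 showed the same order of its extremes, -0.37 ± 0.19 in MDA-MB-361 and 0.33 ± 0.29 in ZR-75-30 (adjusted p = 0.0068), and its second probe did not (range 0.10). FZD9 in HCC1954 lay between -0.05 and 0.04 on one scan day and between -0.64 and -0.24 on the other. The ratios of FZD10 in HCC1954, the one line that measured it, split in the same way, with 0.07, 0.00 and 0.07 on the first day and 0.69, 0.48 and 0.57 on the second.

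AXIN1, the scaffold of the destruction complex, had mean ratios of 0.22 ± 0.15 in MDA-MB-361, 0.02 ± 0.22 in ZR-75-30, -0.12 ± 0.09 in HCC1954, -0.18 ± 0.20 in SK-BR-3 and -0.19 ± 0.16 in HCC1419 (adjusted p = 0.0094). All 6 arrays of MDA-MB-361 were above 0, from 0.08 to 0.42. WNT9A was lowest in SK-BR-3 at -0.32 ± 0.10, with all 6 arrays below 0, from -0.45 to -0.20, and lay at 0.02 ± 0.09 in MDA-MB-361 (adjusted p = 0.0087). FZD2 was lowest in ZR-75-30 at -0.32 ± 0.13, with all 6 arrays from -0.45 to -0.16, and lay at 0.03 ± 0.16 in SK-BR-3 (adjusted p = 0.0080). FZD7 was highest in HCC1419 at 0.50 ± 0.26, with all 6 arrays from 0.14 to 0.84, and lowest in MDA-MB-361 at 0.06 ± 0.26 (adjusted p = 0.014). FZD6, a receptor known for planar cell polarity, ran in ZR-75-30 from -0.69 to 0.55, a wider spread than the range of 0.49 between the line means (adjusted p = 0.036).

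A change of 2-fold or more on at least 1 array was seen for 4 members, CTNNB1, FZD5, WNT6 and WNT11 (7.8% of all probes), and on at least 2 arrays for CTNNB1 and WNT6 (2.56%). CTNNB1 held its 2 such arrays in SK-BR-3, 1.14 at 30 min and -1.14 at 1 h, in opposite directions. The log2 vehicle level of this probe in SK-BR-3 was 13.05 at 1 h, and 11.80 to 12.08 at the other times. The -1.14 thus came with a high vehicle channel. The CTNNB1 probe was printed on 10 spots per array, whose median SD was 0.073. The second CTNNB1 probe read -0.32 and -0.47 on the same arrays. Over the 30 arrays the 2 probes had a correlation of 0.27 in ratio.

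WNT6 had the widest ratios of all members, and its probes did not follow each other. The brighter probe, at chr2:219446524-219446583 (hg18), ran from -2.19 in SK-BR-3 at 30 min to 1.64 in MDA-MB-361 at 12 h, with 2 arrays at 2-fold or more above and 4 below. In HCC1419 all 6 of its ratios were below 0 (-1.82 to -0.33) and in MDA-MB-361 all 6 were above 0 (0.08 to 1.64). In SK-BR-3 they changed sign from -2.19 at 30 min to 1.14 at 1 h and back to -1.81 at 12 h. The dimmer probe, at chr2:219447096-219447155, stayed between -0.41 and 0.33 on all arrays, and the correlation of both probes over the 30 arrays was -0.10 in ratio and -0.06 in vehicle level.

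The ratios of the brighter WNT6 probe followed those of the probe of NEUROG3, a transcription factor gene of endocrine progenitors that was taken as the reference for a group of probes that rose and fell together on these arrays. Over the 30 arrays, which share lines and scan days, the correlation was 0.97 for the brighter WNT6 probe and -0.10 for the dimmer one. AXIN1 was the other member at 0.7 or more, with 0.81, while 4.03% of all probes reached this. FZD6 ran the opposite way, at -0.75, and the second probe of WNT4 reached 0.78. No spot of either WNT6 probe was saturated.

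**Figure D5:**
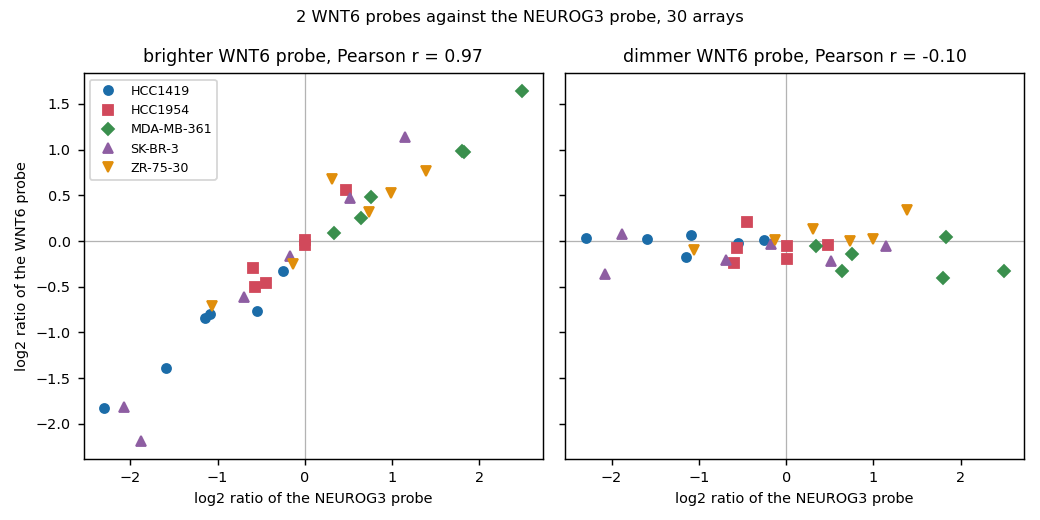
Log2 ratio of the brighter (left) and the dimmer (right) WNT6 probe against the log2 ratio of the NEUROG3 probe, with 1 point per array and the cell lines in colours. The brighter probe follows the NEUROG3 probe along a line from lower left to upper right, with a correlation of 0.97, and the dimmer probe stays near 0, with -0.10.

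Of 69 further WNT pathway genes listed by role, 67 were on the array. None had a late change or a change over time past the threshold (0.0927 and 0.0902% of all probes did). Of the 67, 1 passed at 24 h, where 1.58% of all probes did. It was RYK, a co-receptor of WNT ligands, whose mean was -0.38 ± 0.23 (limma adjusted p = 0.037). RYK's ratios had a correlation of -0.72 with those of NEUROG3. The median late change of the 67 genes was -0.02 and the values ran from -0.41 for WIF1, a secreted WNT inhibitor, to 0.42. By role, 0 of 8 secretion and agonist genes, 0 of 13 further inhibitors, 0 of 14 cytoplasmic genes, 0 of 12 nuclear genes and 0 of 10 target genes passed at 24 h. MYC, a target of beta-catenin and of many other inputs, had a mean of -0.43 ± 0.20 at 24 h (adjusted p = 0.23). The mean ratio differed between lines for 23 of the 67 genes and the vehicle level for 52, where 22.2 and 73.1% of all probes did.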

How the data were processed

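Scanner files of 30 two-colour Agilent 44K arrays were used. The deposited intensities were extracted per the file headers with Feature Extraction 9.5.1.1 (probe positions hg18). Its deposited log10 ratios and the authors' series matrix of log2 ratios, linearly normalized per the authors' methods and equal to the processed signals' log2 ratio (lowest r 0.999859), served as alternatives.

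Mean signals were corrected by normexp (offset 50), normalized by loess within arrays, and averaged per probe, with outlier-flagged spots left out (1146 of the probe values missing). Vehicle levels were log2 Cy3 after Aquantile normalization. Tests used limma 3.58.1 in R 4.3.3, adjusted by Benjamini-Hochberg across every probe (threshold 0.05). They were also run on simulated data with noise drawn independently for each array. Such data cannot show how the tests behave where arrays share a line or a scan day. The ratio at each time was fitted without a block; late change and time had cell line as a block. Replicate numbers pair the samples because a number is a cell line: ratios of 75 same-line pairs had a mean correlation of 0.23, 44 above 0.1, against -0.088 between lines. P-values against 0 measure the spread between lines, pooled over the 6 time points as if the arrays of a line were independent. Those of comparisons between lines measure the spread between the 6 arrays of a line. With cell line as a block they measure only the spread left after each line's mean is removed.

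Genes, lists and tests were chosen with earlier results of these data known. Named genes were the 12 with the widest level range, those past a ratio test and those at 2-fold on at least 2 arrays. Others were added after their values were seen. Alternatives covered source, background correction, normalization, dim probes, probe choice, array weights, scan day, slide, pairing and each line left out. The study's own calls used fold cutoffs without a test. Further WNT pathway genes were annotated by role from general knowledge.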

Additional observations from a re-analysis of the deposited data

Results flagged for a closer look

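In some groups of 5 lines or of 6 arrays, the highest or lowest sample stood far from the rest, which chance gives in about 1 of 20 groups. Of 19 named members at 24 h, 1 was of this kind: FZD10 in HCC1954, with a log2 ratio of 0.57, while the other lines lay between -0.02 and 0.06. Of 19 late changes, 1 was, SFRP1 in MDA-MB-361 at 0.38, while the other lines lay between -0.09 and 0.02. These are the only lines in which FZD10 and SFRP1 were above background on all arrays.

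Of 44 sets of 6 vehicle levels, 5 had such a sample. FZD2 in MDA-MB-361 was at 9.48 at 30 min, below the other 5 arrays. SFRP1 in MDA-MB-361 was at 10.07 and WNT11 in ZR-75-30 at 10.28, both at 30 min and above the rest. WNT3A in HCC1954 was at 8.90 at 1 h, above the rest, and WNT3A in ZR-75-30 at 8.73 at 6 h, below the rest.

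The BMP4 ratio differed between lines for 12 members by the F test across lines. The ranges of the line means on the log2 scale were 1.73 for WNT6, 0.83 for FZD5, 0.70 for FZD4, 0.60 for LEF1 and 0.49 for FZD6. They were 0.43 for FZD7, 0.43 for WNT11, 0.41 for AXIN1, 0.35 for FZD2, 0.34 for FZD9, 0.34 for WNT4 and 0.34 for WNT9A.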

How the results depend on the processing

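The number of members called against 0 at any time was 1 (WNT11). It was 3 with the scanner software's log ratios, 3 with the series matrix and 3 without background correction, in each case SFRP2 at 12 h and FZD2 and WNT11 at 24 h. In these settings, in order, 0.912, 0.731 and 0.939% of all probes were called at 12 h, and 2.69, 2.09 and 2.93% at 24 h. It was 4 with array weights (AXIN1 at 30 min, FZD1 and WNT4 at 3 h, WNT11 at 24 h), where 3.36, 2.79 and 3.04% of all probes were called at these times. With 1 factor per array it was 0, and 0.217% of all probes at 24 h. With the replicate block, in which the cell lines pair the samples, it was 5. Leaving out each line in turn gave 0 to 1 members, 0 without HCC1954, and without ZR-75-30 the 1 was WNT4 at 3 h. The WNT11 mean at 24 h ran from 0.32 with array weights to 1.096 with the series matrix over the 14 alternatives and was called in 11.

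The number of members whose ratio differed between lines was 12. It was 6 with the software's log ratios, 0 with 1 factor per array, and 0 to 12 with each line left out, 0 without MDA-MB-361 and 7 without HCC1419. It was 13 without background correction (25.6% of all probes), 14 with the scan day as a random block (24.4%) and 18 with array weights (36.3%). With only probes above background on at least 15 arrays it was 13 (35.8% of such probes). Late changes that differed between lines numbered 0 (0.0588% of all probes). They numbered 1 with the software's log ratios (WNT2, 1.64% of all probes) and 1 with array weights (CTNNB1, 0.162%). The late change and the change over time gave 0 members under every alternative run, fits without the replicate block included, and the block changed no other call. The vehicle level differed for 25 to 35 members, against 31 in the main setting, where 73.1% of all probes differed. No called value changed direction. The late changes of CTNNB1, FZD4, FZD9, FZD10, LEF1, SFRP1 and WNT3A, none of them called, lay on both sides of 0 over the alternatives. The slide as a block and the scan day within a line were alternatives chosen after seeing the data.

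Limits are the 1 array per line and time, the missing dye swap, scan days that follow lines, and 11 genes with signals at or near background in every line, whose ratios say little about their transcripts. The cause of each difference above was not tested.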

Other observations

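In the authors' series matrix, which holds the scanner software's processed ratios, some dim members passed 2-fold on more arrays than here. DKK3 did so on 5 arrays upward and 6 downward, WNT5B on 4 and 1, and both on 0 arrays here. WNT11 did so upward on 7 arrays there and on 1 here, and the brighter WNT6 probe on 3 and 5 there and on 2 and 4 here. DKK3 and WNT5B were above background throughout no line.

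Among the 19 pairs of probes of 1 gene, the vehicle levels followed each other closely for SFRP1 (0.99), WNT7B (0.92), FZD3 (0.88) and WNT4 (0.83) over the 30 arrays, and the BMP4 ratios had correlations of 0.80 for SFRP1, 0.57 for FZD3, -0.12 for FZD4, 0.09 for WNT4 and 0.10 for LEF1.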
